A study of Mus musculus with 40 samples.

Results

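Adipocytes isolated from mouse inguinal white fat were compared with whole liver, 3 samples against 2, out of 40 samples in 14 groups of mouse cells and tissues. The members were taken by sample title: every sample titled as isolated adipocytes of inguinal white adipose tissue and every sample titled as liver. Each sample was hybridised to 1 nylon filter array of 5760 cDNA spots, with 33P as the label on the cDNA. The adipocytes were freed from fat with collagenase, washed in buffer and lysed, and their lipid was removed after lysis, whereas liver was taken mechanically with no cell isolation. A difference between these groups can therefore come from cell type, from isolation or from the other cells of whole liver, which cannot be told apart. No treatment, transgene or time point is named for either group. The sources used here do not give the strain, sex, age or number of mice, nor whether the samples within each group are from different animals. What the p-values weigh is the spread between samples, and that spread may be purely technical. In whole-tissue RNA, fewer cells of a type and less RNA per cell cannot be told apart.

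White adipocytes store triglyceride in a single large droplet, release it through lipases, and secrete hormones such as leptin, adiponectin and resistin. Hepatocytes, the main cells of liver, make most of the proteins of blood plasma, carry out detoxification with cytochrome P450 enzymes and glutathione transferases, and handle fatty acids, amino acids and bile acids. Both cell types take up and process lipid, so the comparison sets a storing cell against a secreting and metabolising organ.

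Of 12 adipocyte marker genes looked for, 4 have a spot named for them, and of 19 hepatocyte marker genes 6 have one. Retn and Pnpla2 were higher in adipocytes, Lpl was at a log2 difference (adipocytes minus liver) of 0.62 ± 0.19 (SE, adjusted p = 0.0673) and Cidec at 0.03. Apoc1, Fgb, Hpx and Rbp4 were higher in liver, while the thyroid hormone carrier gene Ttr was at -0.21 (adjusted p = 0.392) and the cytochrome P450 gene Cyp2e1 at -0.19 (adjusted p = 0.849). The markers that passed the test lay on the side this marker set names, though Rbp4 is also on the list of adipocyte hormones and identity. Fgb, Hpx and Rbp4 lost their calls without liver replicate 1, at -0.97, -0.33 and -0.49. No spot is named for Adipoq, Lep, Fabp4, Plin1 or Pparg, nor for Alb, Apoa1 or Serpina1a.

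The 2 liver arrays were unlike each other. The median deposited intensity was 52176, 57097 and 62682 on the adipocyte arrays, 32480 on liver replicate 1 and 18870 on liver replicate 2, the lowest among the 37 arrays that exclude 3 arrays of embryonic stem cells with another intensity range. The 99th percentile was 12.6 to 17.5 times the median on the adipocyte arrays, 4.80 times on liver replicate 1 and 8.51 times on liver replicate 2. Quantile normalization gives every array the same spread and so widened both liver arrays. Selenop, for instance, went from 8.03 to 13.38 times the median in liver replicate 1 and from 3.17 to 5.01 in replicate 2. Across the 5760 spots, which are not independent replicates, the normalized log2 values of liver replicates 1 and 2 correlated at r = 0.817, while liver replicate 2 correlated with the adipocyte arrays at 0.877 to 0.885. With each spot centred over all samples, the 2 liver arrays correlated at 0.219. Centred values of liver replicate 2 correlated with the adipocyte arrays at 0.167 to 0.245, and those of liver replicate 1 at -0.0869 to 0.14. For this reason the called genes are given first as deposited intensity divided by the median intensity of the same array. That division is itself a scaling to the median, and it leaves the unequal ranges of the arrays in place. Results that rest on 1 liver sample are given with and without it.

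With limma, 217 of 5760 spots passed an adjusted p under 0.05, or 3.77%. Of these 107 (1.86%) were higher in adipocytes and 110 (1.91%) higher in liver. The log2 difference reached at most 1.13 among spots higher in adipocytes and -2.68 among spots higher in liver, and it was beyond 1 in 2 and 39 spots. In 45 of the 107 spots higher in adipocytes both liver samples lay below the median spot. A single gene symbol is paired with 121 of the 217 spots, 47 higher in adipocytes and 74 higher in liver. The split depends on the liver samples and the scaling. Without liver replicate 1 there were 103 calls, 28 higher in adipocytes and 75 higher in liver, with 55 of the 217 spots among them, and without liver replicate 2 there were 292, 149 and 143. Scaling each array to its median gave 29 calls, 9 higher in adipocytes and 20 higher in liver. With no scaling all spots shifted by a median of 0.75, and 405 spots were higher in adipocytes against 1 in liver.

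The rule for names took up to 12 genes in each direction whose samples did not overlap in normalized values, and all other called members of the gene lists. Over all spots, 1052 (18.3%) had every adipocyte sample above both liver samples and 1019 (17.7%) every one below. In deposited values over the array median, Selenop, Rbp4, Pon1 and Hbb-b1 do overlap between the groups. Named by this rule were 24 genes higher in liver and 12 higher in adipocytes. Of these 36 genes, 13 kept their call whichever of the 5 samples was left out, and 9 of the 13 also kept it with median scaling. The 9 are Retn, Zfp36 and Pnpla2 on the adipocyte side and Apoc1, Mgst1, Cyp2c67, Apoa5, Cyp2d9 and Slc27a2 on the liver side. With no scaling, the 12 adipocyte genes kept their call and all 24 liver genes lost theirs, these 6 included. In a fit of only these 5 samples, Slc27a2 alone was called (adjusted p = 0.0242).

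The stretch of 250 bases before the annotated start is shown for 4 genes higher in liver and 2 higher in adipocytes, to set the promoters of the contrasting genes side by side. Sequences are from RefSeq, build GRCm38.p6, written 5′ to 3′ in the direction of the gene. Capitals mark matches, on either strand, to TATAAA (the TATA box), AAGGTCA (a core motif of nuclear receptors), CAAAGTCCA (a site of the HNF4 family), GTTAAT (part of an HNF1 site) or TTGCNNAA (a C/EBP site). The positions are chr2:126552774-126553023, plus strand for Slc27a2, chr7:105600117-105600366, minus strand for Hpx, chr3:83049864-83050113, minus strand for Fgb, chr9:46268358-46268607, plus strand for Apoa5, chr8:3655520-3655769, plus strand for Retn and chr7:141454938-141455187, plus strand for Pnpla2.
Slc27a2: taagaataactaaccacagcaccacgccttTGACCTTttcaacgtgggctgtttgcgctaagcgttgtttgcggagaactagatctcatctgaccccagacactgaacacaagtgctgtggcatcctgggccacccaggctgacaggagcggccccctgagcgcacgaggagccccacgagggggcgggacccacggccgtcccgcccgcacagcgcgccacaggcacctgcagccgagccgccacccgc
Hpx: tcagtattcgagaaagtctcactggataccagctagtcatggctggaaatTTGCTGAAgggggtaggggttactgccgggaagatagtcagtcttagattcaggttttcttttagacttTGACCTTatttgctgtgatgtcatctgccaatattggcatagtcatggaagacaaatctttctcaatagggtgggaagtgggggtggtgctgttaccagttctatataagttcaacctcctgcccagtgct
Fgb: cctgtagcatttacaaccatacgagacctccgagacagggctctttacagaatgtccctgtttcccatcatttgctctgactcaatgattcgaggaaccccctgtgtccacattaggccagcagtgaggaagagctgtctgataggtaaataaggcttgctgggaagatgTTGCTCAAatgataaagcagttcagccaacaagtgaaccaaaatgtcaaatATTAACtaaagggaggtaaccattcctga
Apoa5: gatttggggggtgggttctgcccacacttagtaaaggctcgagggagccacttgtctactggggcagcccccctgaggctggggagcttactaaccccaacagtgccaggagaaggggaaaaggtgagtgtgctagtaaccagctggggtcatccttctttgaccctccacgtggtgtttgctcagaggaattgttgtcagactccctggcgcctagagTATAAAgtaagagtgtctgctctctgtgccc
Retn: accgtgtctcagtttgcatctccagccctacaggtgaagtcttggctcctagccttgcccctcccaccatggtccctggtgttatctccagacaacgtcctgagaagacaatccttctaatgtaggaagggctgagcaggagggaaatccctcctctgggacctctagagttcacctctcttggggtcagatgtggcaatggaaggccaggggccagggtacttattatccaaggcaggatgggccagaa
Pnpla2: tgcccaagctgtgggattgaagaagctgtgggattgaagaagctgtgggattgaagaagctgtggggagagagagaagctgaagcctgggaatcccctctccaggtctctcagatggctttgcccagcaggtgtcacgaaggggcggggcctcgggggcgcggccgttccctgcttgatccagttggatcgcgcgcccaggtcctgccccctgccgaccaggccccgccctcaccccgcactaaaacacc
The Slc27a2 and Hpx windows each hold AAGGTCA, read on the opposite strand. The Hpx and Fgb windows hold TTGCNNAA, the Fgb window also GTTAAT on the opposite strand, and the Apoa5 window TATAAA. The windows of Retn and Pnpla2 hold none of the 5 strings. Among 20 liver genes with an entry in the promoter table, TTGCNNAA occurred in 7, TATAAA in 4, GTTAAT in 3, AAGGTCA in 2 and CAAAGTCCA in 1. Among 10 adipocyte genes TTGCNNAA and TATAAA occurred in 1 each and the other strings in 0. Over all 27025 promoters the shares were 9.55% for TTGCNNAA, 13% for TATAAA, 6.52% for GTTAAT, 4.05% for AAGGTCA and 0.381% for CAAAGTCCA. The strings were picked with these genes known, the genes shown were a choice among the named ones, and the counts were not tested. A contrast between the windows shown therefore does not stand for the named genes as a set. A match describes the letters in the window only.

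Plasma proteins made by liver were the group with the most calls. Of 15 measured genes of this list 10 were higher in liver and 0 in adipocytes, against 2.22% and 1.4% of the 3284 genes (119 called in either direction, 3.62%), and the list's median log2 difference was -1.02 against -0.01 over all genes, with 0.04 and 0 calls where no scaling was applied. Without liver replicate 1 the list held 4 calls and a median of -0.53, and with median scaling 4 calls and a median of -0.74. The called genes cover lipoproteins, clotting, haem and retinol transport, selenium and copper carriage and protease inhibitors.

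Apoc1, an apolipoprotein of triglyceride-rich particles, lay at 1.20, 1.78 and 1.05 times the array median in the adipocyte samples and at 8.92 and 2.87 times in the liver samples. Both liver samples were above every adipocyte sample, which the rule for names largely fixes, and replicate 1 was so by far. The log2 difference was -2.17 ± 0.21 (SE, adjusted p = 2.76e-08), -1.44 without liver replicate 1 and -2.90 without liver replicate 2. Apoa5, which aids the clearance of plasma triglyceride, lay at 0.61, 0.57 and 0.44 in adipocytes and at 1.83 and 1.47 in liver. Here the liver samples were close together, and the difference of -1.07 ± 0.18 (adjusted p = 4.24e-04) was -1.04 and -1.10 without liver replicates 1 and 2. Pon1, the paraoxonase carried on high-density lipoprotein, was at 0.66, 1.49 and 0.80 in adipocytes against 2.92 and 1.37 in liver. Adipocyte replicate 2 thus exceeded liver replicate 2, and the difference of -1.02 ± 0.19 was -0.59 without liver replicate 1 (adjusted p = 0.144).

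Several other secreted proteins stood out mainly in liver replicate 1. Hpx, the haem-binding hemopexin, was at 1.10, 0.89 and 0.93 in adipocytes and at 5.61 and 1.21 in liver. Its difference of -1.65 ± 0.33 (adjusted p = 0.00368) shrank to -0.33 without liver replicate 1 (adjusted p = 0.382) and was -2.97 without replicate 2. Pzp, a broad protease inhibitor of the alpha-2-macroglobulin family, was at 1.09, 1.00 and 0.98 against 7.23 and 1.39. Its difference of -1.77 ± 0.31 became -0.53 without liver replicate 1 (adjusted p = 0.0560), and signal of related family members on this spot cannot be told apart. Fgb, the fibrinogen beta chain, was at 1.30, 2.35 and 2.80 against 9.25 and 2.94, so that liver replicate 2 exceeded the highest adipocyte sample only narrowly. Its difference of -1.70 ± 0.28 was -0.97 without liver replicate 1 (adjusted p = 0.0711). Itih2, a hyaluronan-binding inter-alpha-inhibitor chain, was at 1.07, 0.78 and 0.82 against 3.13 and 1.08, with -1.01 ± 0.21 in all and -0.21 without liver replicate 1.

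The carriers of retinol, selenium and copper were higher in liver, and Rbp4 and Selenop lay above the median spot in every adipocyte sample too; with no scaling all 3 turned to positive values (0.04, 0.24 and 0.38). Rbp4, the plasma retinol carrier, which adipocytes are known to make too, lay at 1.43, 3.38 and 2.49 in adipocytes and at 10.4 and 2.17 in liver. Liver replicate 2 fell inside the adipocyte range, and the difference of -1.42 ± 0.27 (adjusted p = 0.00186) was -0.49 without liver replicate 1 (adjusted p = 0.248). Selenop, the selenium transport protein, was at 1.95, 3.19 and 3.26 against 8.03 and 3.17, again with liver replicate 2 inside the adipocyte range. The difference was -1.45 ± 0.25, and -0.79 without liver replicate 1 (adjusted p = 0.0990). Cp, the copper carrier ceruloplasmin, was at 0.91, 1.95 and 1.42 against 2.23 and 2.22, with the liver samples level. Its difference of -0.89 ± 0.16 (adjusted p = 0.00134) was -1.10 without liver replicate 1 and -0.68 without replicate 2. In the iron, haem and selenium list, 3 of 7 measured genes were higher in liver (Selenop, Cp and Hpx) and 0 in adipocytes, against 2.22% and 1.4% of all genes, with 1 call left without liver replicate 1 and 0 with median scaling.

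**Figure D1:**
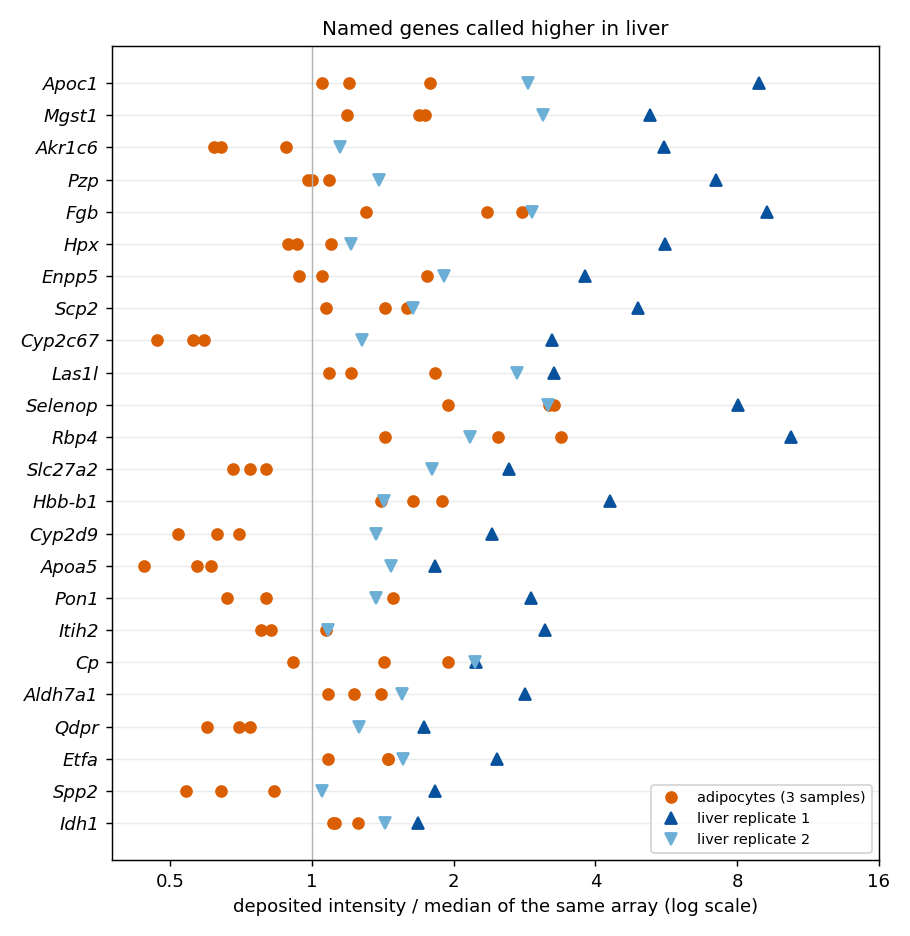
Deposited intensity divided by the median of the same array, on a log axis, for the 24 named genes called higher in liver, with 1 point per sample (circles, 3 adipocyte samples; triangles, the 2 liver samples) and genes ordered by log2 difference. Liver replicate 1 lies to the right of replicate 2 for most genes, and in Selenop, Rbp4, Pon1 and Hbb-b1 replicate 2 lies among the adipocyte samples.

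Detoxification enzymes were also higher in liver in part. Of 15 measured genes 3 were higher in liver (Mgst1, Cyp2d9 and Akr1c6) and 0 in adipocytes, against 2.22% and 1.4% of all genes, and the list median was -0.26; with no scaling, 0 were called higher in liver and 1 in adipocytes, with a median of 0.56. Without liver replicate 1 there were 2 calls, and with median scaling 3. Mgst1, a membrane-bound glutathione transferase, was at 1.19, 1.74 and 1.69 in adipocytes and at 5.22 and 3.09 in liver. All liver values lay above all adipocyte values, which the rule for names largely fixes. The difference of -1.94 ± 0.19 (adjusted p = 3.50e-08) was -1.34 and -2.53 without liver replicates 1 and 2. Cyp2d9, a cytochrome P450, was at 0.63, 0.52 and 0.70 against 2.41 and 1.37, with -1.10 ± 0.18 (adjusted p = 4.12e-04). Cyp2c67, another P450 and not on the list, was at 0.59, 0.47 and 0.56 against 3.24 and 1.28, with -1.58 ± 0.23 (adjusted p = 4.45e-05), -0.81 without liver replicate 1 and -2.36 without replicate 2. Both P450 genes lay below the median spot in every adipocyte sample and above it in both liver samples, and both kept their call without either liver sample. These P450 genes, like Akr1c6, belong to families of near-identical copies, and cross-hybridisation between copies was not tested. Akr1c6, a steroid-converting aldo-keto reductase, was at 0.88, 0.64 and 0.62 against 5.58 and 1.15, with -1.81 ± 0.34 in all but -0.45 without liver replicate 1 (adjusted p = 0.163). Cyb5a, the electron donor to P450 enzymes, did not pass at -1.08 ± 0.35 (adjusted p = 0.0789); in normalized values liver replicate 1 was at 12.41 times the median spot and liver replicate 2, at 1.49, lay inside the adipocyte range of 1.08 to 2.41. The metallothionein gene Mt1 pointed the other way without passing, at 0.97 ± 0.32 (adjusted p = 0.0834).

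Among genes of fatty acid and sterol handling, Slc27a2 had the smallest adjusted p of the named genes. Slc27a2 activates very long-chain fatty acids and bile acid precursors. It lay at 0.80, 0.68 and 0.74 in adipocytes and at 2.62 and 1.80 in liver, so that the adipocyte samples were tightly grouped below the median spot. Its difference was -1.30 ± 0.12 (adjusted p = 1.46e-08), and -1.23 and -1.36 without liver replicates 1 and 2. It was the single call among 9 measured genes of sterol and bile acid metabolism (2.22% of all genes were higher in liver), a list whose median was 0.12. Of 15 genes of fatty acid oxidation and peroxisomes 2 were higher in liver and 0 in adipocytes, against 2.22% and 1.4% of all genes, with a median of -0.05 and 0 calls without liver replicate 1. They were Scp2, the sterol carrier and peroxisomal thiolase gene, and Etfa, which passes electrons from fatty acid oxidation to the respiratory chain. Scp2 was at 1.07, 1.43 and 1.59 against 4.93 and 1.64 and had -1.61 ± 0.27, but -0.63 without liver replicate 1 (adjusted p = 0.102). Etfa was at 1.08, 1.45 and 1.45 against 2.47 and 1.56 and had -0.70 ± 0.14, but -0.56 without liver replicate 1 (adjusted p = 0.0769). Both had liver replicate 2 only just above the highest adipocyte sample. Oxidation genes such as Cpt2 (0.04), Hadh (-0.07) and Ehhadh (0.06) were not called.

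In amino acid metabolism 2 of 21 measured genes were higher in liver and 0 in adipocytes, against 2.22% and 1.4% of all genes, with a median of -0.13. They were Aldh7a1, of lysine breakdown, and Qdpr, which recycles the cofactor of phenylalanine hydroxylation. Aldh7a1 was at 1.23, 1.40 and 1.08 against 2.84 and 1.55 (-0.89 ± 0.17, adjusted p = 0.00186). Qdpr was at 0.74, 0.60 and 0.70 against 1.73 and 1.26 (-0.77 ± 0.17, adjusted p = 0.00609). The groups did not overlap, yet both genes lost their call without liver replicate 1, at -0.6 and -0.65. The list median was 0.12 without liver replicate 1 and -0.39 without liver replicate 2. Idh1, the cytosolic isocitrate dehydrogenase, was at 1.11, 1.25 and 1.12 against 1.68 and 1.43. It had -0.49 ± 0.14 (adjusted p = 0.0450) and lost its call whichever sample was left out. Spp2, a secreted phosphoprotein, was at 0.83, 0.64 and 0.54 against 1.83 and 1.05, with -0.66 ± 0.14 (adjusted p = 0.00481), and -0.35 without liver replicate 1. Idh1 was the call among 2 genes of fatty acid synthesis (median -0.13) and among 4 of the tricarboxylic acid cycle (median -0.02). Spp2 was the call among 7 of the list of liver transcription factors and receptors (median -0.16). Of all genes 2.22% were higher in liver, and these lists lost their calls without liver replicate 1.

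Outside these lists, Enpp5 of the nucleotide pyrophosphatase family had -1.61 ± 0.36 and Las1l, a ribosome assembly gene, -1.56 ± 0.28. Enpp5 was at 0.94, 1.05 and 1.76 against 3.80 and 1.91, and Las1l at 1.09, 1.21 and 1.83 against 3.27 and 2.72. Enpp5 reached -0.92 without liver replicate 1 (adjusted p = 0.253), while Las1l kept its call without either liver sample. The haemoglobin gene Hbb-b1, the only erythroid marker measured, was at 1.40, 1.64 and 1.89 in adipocytes and at 4.30 and 1.42 in liver. Liver replicate 2 lay inside the adipocyte range, and the difference of -1.22 ± 0.30 (adjusted p = 0.0163) was -0.18 without liver replicate 1. The other globin copies may share this spot. Liver replicate 1 thus had both the highest Hbb-b1 signal and the highest signal of most liver genes, and the part of blood in these values was not tested.

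On the adipocyte side, Retn had the largest log2 difference after quantile normalization. With median scaling Slf2 (1.73, adjusted p = 0.0854) and Vamp2 (1.14, adjusted p = 0.136) exceeded the 1.09 of Retn (adjusted p = 0.0121) but did not pass. Retn, the gene of the adipocyte hormone resistin, lay at 2.29, 3.22 and 1.70 in adipocytes and at 0.65 and 0.84 in liver. Every adipocyte sample was above the median spot and both liver samples below it. The log2 difference was 1.13 ± 0.17 (adjusted p = 1.14e-04), with 0.99 and 1.28 without liver replicates 1 and 2. Of the 5 measured genes of adipocyte hormones and identity Retn was higher in adipocytes and Rbp4 in liver, against 1.4% and 2.22% of all genes. The list median was 0.31. The caveolar coat gene Cavin1 (0.46 ± 0.24, adjusted p = 0.295) and the caveolin gene Cav2 (0.31 ± 0.19, adjusted p = 0.380) had positive values without passing.

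Pnpla2, adipose triglyceride lipase, was the call among 11 measured genes of lipid droplets and triglyceride turnover (1.4% of all genes were higher in adipocytes), whose median was 0.10. It lay at 1.56, 3.17 and 2.09 in adipocytes and at 0.94 and 0.89 in liver. The samples did not overlap, which the rule for names largely fixes. Adipocyte replicate 2 was the highest in these values, as it was for Retn and Zfp36. In normalized values of Zfp36 adipocyte replicate 3 was the highest, at 2.98 against 2.91 in replicate 2. The difference of Pnpla2 was 0.81 ± 0.13 (adjusted p = 2.17e-04), with 0.84 and 0.78 without liver replicates 1 and 2. Lpl, which frees fatty acids from circulating triglyceride, lay at 2.34, 3.87 and 4.01 times the median spot in normalized values of adipocytes, against 2.12 and 1.75 in liver, without passing. The triglyceride synthesis gene Dgat1 was at 0.33 (adjusted p = 0.202) and the droplet gene Plin5 at 0.28 (adjusted p = 0.467). Insulin signalling was represented by 2 genes, neither called: the phosphatase gene Ptpn1 at 0.34 ± 0.13 and the phosphodiesterase gene Pde3b at 0.19 ± 0.15, which was -0.01 without liver replicate 1.

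Zfp36, tristetraprolin, binds and destabilises mRNAs of inflammatory factors and is induced early by many stimuli. It was at 1.40, 3.38 and 2.76 in adipocytes and at 1.08 and 0.84 in liver, and adipocyte replicate 1 was nearest to liver. The difference was 0.88 ± 0.17 (adjusted p = 0.00186), with 1.03 and 0.72 without liver replicates 1 and 2. It was the single call among 15 immediate early and heat shock genes (against 1.4% of all genes), whose median was 0.10. Its relative Zfp36l1 (0.52 ± 0.17) and the phosphatase gene Dusp1 (0.41 ± 0.13) each had adjusted p = 0.0789, while Jun was at -0.17 and Myc at 0.10. Adipocytes went through collagenase digestion and liver did not, and the part of digestion in these values was not tested.

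**Figure D2:**
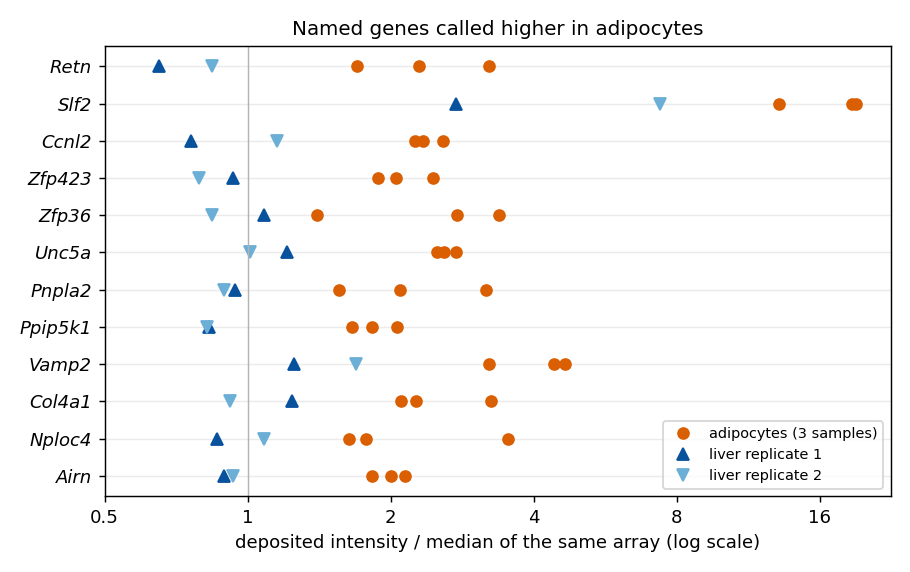
Deposited intensity divided by the median of the same array, on a log axis, for the 12 named genes called higher in adipocytes, with 1 point per sample (circles, 3 adipocyte samples; triangles, the 2 liver samples). The 12 genes were chosen for no overlap in normalized values, where 18.3% of all spots had every adipocyte sample above both liver samples. No liver sample reaches an adipocyte sample in deposited values of these genes either, which that choice largely fixes. Slf2 is the gene whose liver samples are farthest apart, at 2.75 and 7.38.

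Among the other adipocyte genes, Zfp423, a zinc finger regulator of preadipocyte commitment, was at 1.88, 2.05 and 2.46 against 0.93 and 0.79 (0.88 ± 0.16, adjusted p = 0.00134). Col4a1, a basement membrane collagen gene, was at 2.26, 3.25 and 2.10 against 1.24 and 0.92 (0.75 ± 0.18, adjusted p = 0.0147), as the call among 12 matrix and cytoskeleton genes (against 1.4% of all genes) with a median of 0.09. Zfp423 kept its call without either liver sample, and Col4a1 lost its call without liver replicate 2 (0.54, adjusted p = 0.161). Vamp2, a SNARE of vesicle fusion, was at 4.41, 4.65 and 3.22 against 1.25 and 1.69 (0.77 ± 0.20, adjusted p = 0.0279). Unc5a, a netrin receptor gene, was at 2.59, 2.75 and 2.50 against 1.21 and 1.01 (0.82 ± 0.18, adjusted p = 0.00633). Vamp2 had 0.47 without liver replicate 1 (adjusted p = 0.346), and Unc5a 0.69 without liver replicate 2 (adjusted p = 0.0669).

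The remaining 5 were not members of the pathways above. Slf2, a factor of the SMC5-SMC6 chromosome complex, was bright throughout, at 19.0, 18.7 and 13.1 against 2.75 and 7.38. Its difference of 0.96 ± 0.22 became 0.25 without liver replicate 1 (adjusted p = 0.544) and 1.66 without replicate 2. Ccnl2, a cyclin tied to splicing, was at 2.57, 2.34 and 2.25 against 0.76 and 1.15, with 0.93 ± 0.17, and 0.63 without liver replicate 1 (adjusted p = 0.0943). Ppip5k1, an inositol pyrophosphate kinase gene, was at 1.83, 1.66 and 2.06 against 0.83 and 0.82 and kept its call of 0.78 ± 0.16 whichever sample was left out. Nploc4, a cofactor of the p97 segregase, was at 1.63, 3.53 and 1.77 against 0.86 and 1.08, with 0.75 ± 0.20, and 0.58 without liver replicate 1 (adjusted p = 0.236). Airn, a noncoding RNA, was at 2.14, 1.83 and 2.00 against 0.89 and 0.93, with 0.73 ± 0.16 (adjusted p = 0.00679), and 0.69 without liver replicate 1 (adjusted p = 0.0715). Airn overlaps Igf2r in the annotation, and the sources used here do not say whether this spot reads 1 strand.

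**Figure D3:**
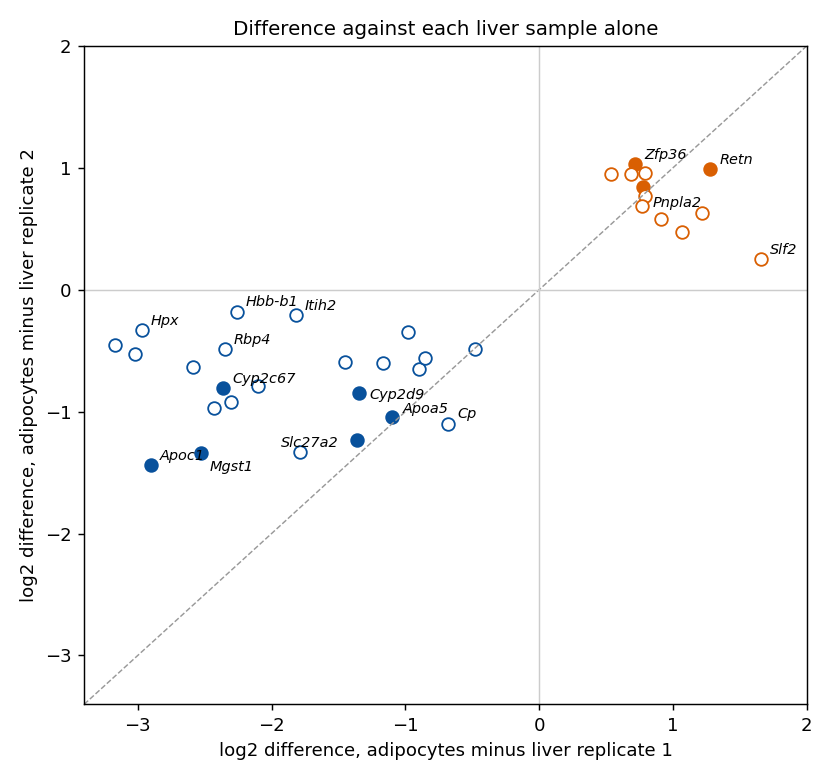
Log2 difference of adipocytes minus liver replicate 1 alone (x axis) against adipocytes minus liver replicate 2 alone (y axis) for the 36 named called genes, with filled points for the 9 genes that kept their call in every fit with 1 sample left out and with median scaling, and the dashed line marking equal values. Liver genes lie mostly above the line, as with Hpx at -2.97 against replicate 1 and -0.33 against replicate 2, while Slc27a2, Apoa5 and Pnpla2 lie near it.

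Each of the 36 called genes kept its sign against either liver sample alone. Against liver replicate 2 alone 15 of the 36 genes were still called, and against liver replicate 1 alone 33. The lone liver sample was assumed to vary like the other groups.

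The adipocyte and liver samples were next set beside the 2 samples of tibialis muscle, a whole tissue taken in the same series. These comparisons share samples, so their values are given side by side only. Against muscle, limma called 108 spots in liver (1.88%) and 22 in adipocytes (0.382%). Of the 24 liver genes 23 were called in liver against muscle and 0 in adipocytes against muscle, and the exception, Hbb-b1, had 1.16 ± 0.32 in liver (adjusted p = 0.0526). The 24 were chosen for high values in the same liver samples, which largely fixes the count of 23. When each liver and muscle sample was left out in turn, 10 of the 23 kept the call in all 4 fits and 8 in 1 fit only: Akr1c6, Fgb, Hpx, Enpp5, Itih2, Idh1, Qdpr and Spp2. Hpx ranged from 0.37 to 3.00 and Itih2 from 0.05 to 1.67 over these fits. Apoc1, for instance, was at 2.26 ± 0.23 in liver minus muscle and at 0.09 ± 0.21 in adipocytes minus muscle. Slc27a2 was at 1.16 ± 0.13 and -0.14 ± 0.12. Rbp4 and Selenop had the highest values in adipocytes minus muscle among these 24 genes, 0.83 ± 0.27 and 0.67 ± 0.25, without passing (adjusted p = 0.444 and 0.744).

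Of the 12 adipocyte genes 3 were called in adipocytes against muscle: Zfp36 at 1.19 ± 0.17 (adjusted p = 3.76e-05), Retn at 0.97 ± 0.17 (adjusted p = 0.00154) and Pnpla2 at 0.62 ± 0.13 (adjusted p = 0.0120). Pnpla2 kept that call in 1 of 5 fits that left out a sample, Retn and Zfp36 in 5 of 5. Ppip5k1 was the 1 gene of the 12 called in liver against muscle, at -0.82 ± 0.17 (adjusted p = 0.00599), with -0.04 ± 0.16 in adipocytes against muscle. For Ppip5k1 the liver samples were thus the ones apart, while Retn had -0.16 and Pnpla2 -0.20 in liver against muscle. Slf2, Airn, Col4a1 and Nploc4 also differed more in liver against muscle, at -0.76, -0.6, -0.55 and -0.54. In adipocytes against muscle these 4 had 0.2, 0.13, 0.2 and 0.2. Ccnl2, Zfp423, Unc5a and Vamp2 went the other way, at 0.55, 0.51, 0.66 and 0.48 in adipocytes against muscle. Their values in liver against muscle were -0.38, -0.37, -0.16 and -0.29. None of these genes was called against muscle.

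**Figure D4:**
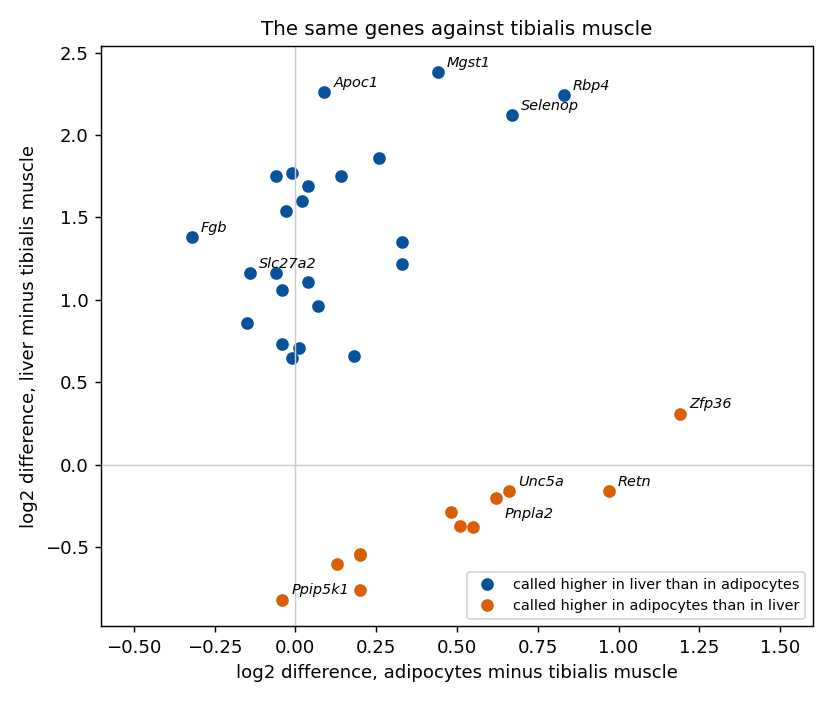
Log2 difference of adipocytes minus tibialis muscle (x axis) against liver minus tibialis muscle (y axis) for the 24 genes called higher in liver and the 12 called higher in adipocytes; both axes share the muscle samples. The liver genes lie between 0.65 and 2.38 on the y axis, and Zfp36, Retn and Pnpla2 are the genes called on the x axis.

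Levels across the other 32 samples of the remaining groups, the stem cells without LIF left out, put these genes in a wider frame. In 17 of the 24 liver genes no other sample reached the lowest liver sample in normalized intensity. Among them was Apoc1, whose highest other sample was at 1.35 times the median spot against 4.61 and 13.85 in liver. These genes were chosen for high values in the same liver samples, and the share over all spots was not counted. The count is therefore no measure of how specific they are to liver. Retn was at 2.23 ± 0.53 times the median spot (SD, n = 3) in tissue adipocytes. It was at 0.81 ± 0.02 (n = 3) in adipocytes of the cultured line 3T3-F442A after 7 days with rosiglitazone, and at 0.88 ± 0.27 (n = 3) in adherent stroma-vascular cells of inguinal fat kept 24 h in culture. Effects of culture and of cell type cannot be told apart here. Pnpla2 was at 2.11 ± 0.63 in tissue adipocytes, 1.5 ± 0.15 in 3T3-F442A adipocytes and 1.08 ± 0.07 in stroma-vascular cells. No sample of another group reached the tissue adipocytes in Retn, and for Pnpla2 the lowest tissue adipocyte sample, at 1.46, was below the highest 3T3-F442A sample, at 1.68. In 3 of the 12 adipocyte genes, Retn, Zfp36 and Unc5a, no other sample reached the lowest adipocyte sample. The 12 were likewise chosen for high values in the same adipocyte samples, and the share over all spots was not counted.

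Lists of housekeeping and energy genes had no call with all samples. None of 18 respiratory chain genes (median -0.18), 9 ribosomal protein genes (median -0.16) and 11 genes of glucose and glycogen metabolism (median -0.09) passed. Over all 3284 genes 3.62% were called in either direction, and at that share lists this short can hold no call. The complex III subunit gene Uqcrfs1 was at -0.62 ± 0.23 (adjusted p = 0.126). The glucose transporter gene Slc2a2, the form used by liver, was at -0.32 ± 0.14 (adjusted p = 0.2), with -0.08 without liver replicate 1 (adjusted p = 0.876) and a call at -0.56 without replicate 2 (adjusted p = 0.0357). Without liver replicate 2 the respiratory chain list also had 1 call in each direction. The phosphofructokinase gene Pfkp was at 0.35 ± 0.14 (adjusted p = 0.136). Medians of these lists lay at 0.58 to 0.80 with no scaling, near the shift of all spots.

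Markers of other cell types that the samples could hold were not called with all samples, apart from Hbb-b1. With 3.62% of all genes called in either direction, lists of this length can hold no call. Of 7 macrophage markers 0 passed, with summed normalized levels of 7.62 to 8.07 in adipocytes and 6.63 to 8.22 in liver. The highest was Fcer1g at 0.36 ± 0.21 (adjusted p = 0.361). Of 5 endothelial markers 0 passed, with sums of 4.72 to 5.4 in adipocytes and 5.16 to 5.79 in liver. Of 7 lymphocyte markers 0 passed, with 8.83 to 9.78 in adipocytes and 6.65 to 8.62 in liver, and the B cell gene Cd79b was closest at 0.79 ± 0.24 (adjusted p = 0.0507). Cd79b was at 0.23 without liver replicate 1 (adjusted p = 0.718) and was called at 1.36 without replicate 2 (adjusted p = 6.95e-04). The sums of the adipocyte and liver samples did not overlap for lymphocyte markers. To these sums Cd79b alone added 3.2, 2.84 and 3.82 in adipocytes and 0.86 and 2.68 in liver. Of the 7 lymphocyte markers 4 had positive and 3 negative differences. The part of lymphocytes in the differences above was not tested. Of 10 skeletal muscle markers 0 passed, with sums of 11.2 to 12.3 and 11.7 to 13.

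Calls were unevenly spread over the rows of the deposited table; the link between row order and the filter was not tested. The first 2880 rows held 28 of the spots higher in adipocytes and the last 2880 rows 79, while spots higher in liver numbered 80 and 30. With a running median over neighbouring rows removed from each array, 160 spots were higher in adipocytes, 69 in the first 2880 rows and 91 in the last, and 207 higher in liver, 106 and 101. Of the 107 and 110 calls before this step, 90 and 108 were among them, as were all 36 named genes. The named genes kept their calls with this trend removed, whereas the counts over all spots moved with it.

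**Figure D5:**
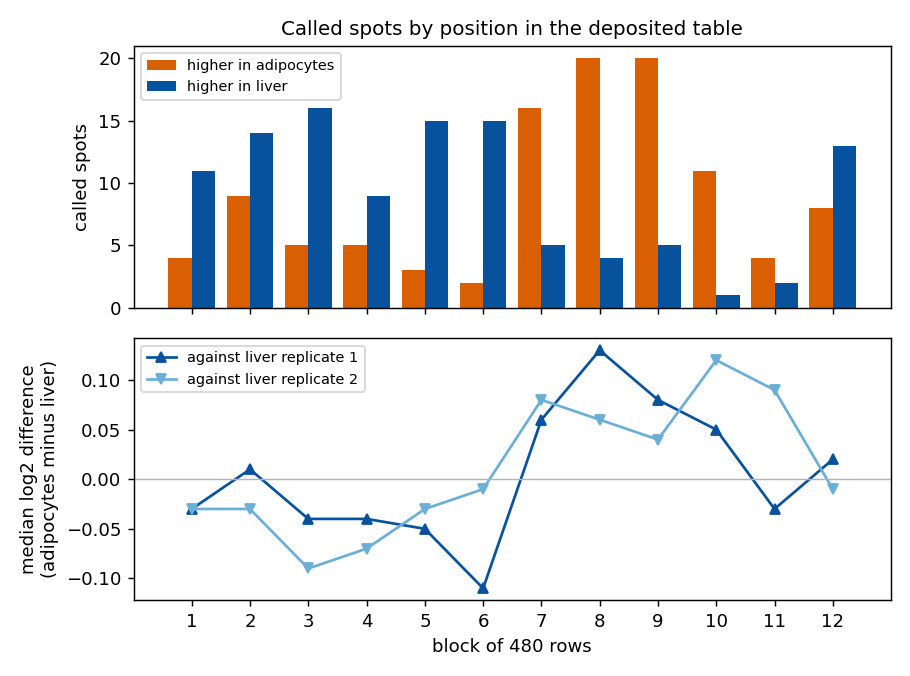
Number of called spots (top) and median log2 difference of adipocytes minus each liver sample (bottom) in 12 consecutive blocks of 480 rows of the deposited table. Spots called higher in adipocytes are most frequent in blocks 8 and 9, with 20 each, and the block medians lie between -0.11 and 0.13.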

How the data were processed

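RNA of 40 mouse samples was hybridised to nylon filter arrays, 1 sample each. The protocols in the labels name Tripure extraction, DNase treatment, 33P labelling of cDNA, Resgen filters and quantification in Imagene. The authors deposited linear spot intensities, and the sources used here do not give any background correction or scaling before deposit. Background left in the values compresses fold changes, and the number of arrays limits the precision.

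A single gene symbol is given for 3420 of 5760 spots, several for 98 and none for 2242. By gene identifier 3346 spots matched the GRCm38.p6 annotation, which was used for names only, and 3284 genes are named. Intensities of the 40 arrays were quantile normalized and converted to log2 values with an offset of 36370, the 10th percentile of normalized intensities, which is 0.69 times the median spot and understates differences of dim spots. All 14 groups entered 1 limma fit (limma 3.58.1, R 4.3.3; 25 residual degrees of freedom), with the pair of 3T3-L1 samples averaged. Tests were two-sided, adjusted by Benjamini-Hochberg over 5760 spots, and called at an adjusted p under 0.05. SEs therefore come from the spread over all groups. The script was tested on simulated data.

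Named genes are spots with 1 symbol, without clone names: up to 12 with the largest called difference in each direction whose samples do not overlap, all other called members of 22 gene lists, and, from each list with no call, the 2 with the smallest p, as values. Lists use the brightest spot of a gene. The samples compared, the gene lists and the rule were chosen with earlier results of these data known. Alternatives were other scalings, offsets, background and filters, removal of a running median over 201 rows, other sample sets, a replicate block, other variance models and leaving out each sample. Median scaling together with the running median was added after seeing the data. Replicate numbers were checked as pairs: deviations from the group means correlated at r = -0.261 and -0.161 between same-numbered samples, so the samples share only a number. Promoters are RefSeq sequences searched on both strands. Python 3.11.15 and matplotlib 3.10.9 drew the figures.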

Additional observations from a re-analysis of the deposited data

How the results depend on the processing

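Against 217 called spots, median scaling gave 29, no scaling 406, removal of the running median over table rows 367, that removal with median scaling 49, array weights 50 and a fit of only adipocytes and liver 1, Slc27a2. Leaving out each sample in turn gave 92 to 292 calls: 92 without adipocyte replicate 1, 108 without replicate 2, 143 without replicate 3, 103 without liver replicate 1 and 292 without liver replicate 2. With the replicate number as a block in a fit of only adipocytes and liver, 26 spots were called, 3 higher in adipocytes and 23 in liver, and 25 of the 36 named genes lost their call; samples share only a number here, and the cause of the other changes was not tested. The other alternatives gave 161 calls with bright spots only (102 and 59, of 2880 tested) to 257 with only primary groups, within 1.5 times the count. Among the 36 called genes, 24, all those higher in liver, lost their call with no scaling, 23 with median scaling, 21 without liver replicate 1, 9 with array weights and 0 with the running median removed or 4 times the offset. With no scaling, where all spots shifted by 0.75, these values turned positive: Scp2 0.02, Las1l 0.04, Selenop 0.24, Rbp4 0.04, Idh1 0.53, Cp 0.38, Pon1 0.02, Aldh7a1 0.28, Qdpr 0.02, Etfa 0.43, Spp2 0.03 and Hbb-b1 0.39, and, of genes not called, Slc2a2 0.24, Uqcrfs1 0.40, Ndufa13 0.68, Rpl22 0.66, Rpl15 0.58 and Cdh5 0.56. Pde3b was -0.01 without liver replicate 1. Dim spots are limited by signal over background: the lowest intensity was 7675 on liver replicate 2, whose median was 18870.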
